A study of Mus musculus with 4 samples.

Results

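The 7 genes of the cyclin-dependent kinase (CDK) inhibitors were read in all 4 libraries, as 7 of the 22481 gene symbols used. They were chosen by name: the Cip/Kip genes Cdkn1a, Cdkn1b and Cdkn1c, and the INK4 genes Cdkn2a, Cdkn2b, Cdkn2c and Cdkn2d. RNA sequencing was done on spleen cells of C57BL/6 background mice, with 1 library for each of 4 groups. The first cell type was the invariant natural killer T (iNKT) cell, sorted by T cell receptor beta and a loaded CD1d tetramer, and the other the CD4+ T cell with high CD44 (CD44hi), sorted by T cell receptor beta, CD44 and CD4. Both were taken from wild-type mice (WT) and from mice of the genotype Ezh2fl/fl CD4-Cre (KO). Cre driven by Cd4 sequences is active from thymic precursors onward, so both T cell types of a KO mouse descend from cells that carried Cre. The age and sex of the mice, and whether animals were pooled, are not given in the sources used here.

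CDK inhibitors are proteins that bind cyclin-dependent kinases and slow or stop the cell cycle. INK4 proteins bind CDK4 and CDK6 and keep them from D cyclins, while Cip/Kip proteins bind CDK2 and CDK1 with cyclins E, A and B, and also join CDK4 complexes. In T cells, p27 (from Cdkn1b) is high at rest and is degraded as the cells enter the cycle, and p18 (from Cdkn2c) limits the division that follows antigen receptor signals. EZH2 is the enzyme of Polycomb repressive complex 2 that places the repressive mark H3K27me3. The locus that holds Cdkn2a and Cdkn2b is a classic target of this complex in dividing cells such as fibroblasts.

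With 1 library per group, the differences have no replicate check, and no test was run. Levels are FPKM, fragments scaled to transcript length and to the size of the library. The number of fragments behind a value was estimated from the smallest steps of FPKM in each file. Intervals are 95% exact intervals of these counts (Poisson for a level, Clopper-Pearson for a ratio), and cover counting error only. Relative to WT iNKT, the libraries held an estimated 1.07 (KO iNKT), 3.69 (WT CD44hi) and 4.91 (KO CD44hi) times the fragments. The depth followed the cell type, so depth and cell type cannot be told apart.

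Some facts of the libraries touch what follows. Where 4 values stand in a row, here and below, they are in the order WT iNKT, KO iNKT, WT CD44hi, KO CD44hi. Ezh2 itself had 15.3, 16.8, 28.9 and 18.5 FPKM, and a value over the whole gene does not check a deletion of part of it. Of 18 T cell identity genes, 0 were called between the CD44hi libraries, while in the iNKT pair Tcf7 (159 FPKM in WT and 558 in KO) was called higher and Thy1 (449 and 82.7), Cd2 (166 and 63.3) and Bcl11b (40.5 and 19.4) lower. Over all measured genes, 9.43% were called in the iNKT pair and 3.58% in the CD44hi pair, by the rule given below. Zbtb16, which marks iNKT cells, had 28.2, 63.1, 4.3 and 41.4 FPKM. The Y-linked gene Eif2s3y was at 22.7 FPKM in WT CD44hi and listed at 0 in the other 3 libraries, while Xist, transcribed from the inactive X of female cells, had 55.3, 76.8, 46.8 and 80.0 FPKM, so that WT CD44hi held RNA of both kinds. The summed markers of B cells, myeloid cells and red cells were higher in both CD44hi libraries than in both iNKT libraries, although S100a8 and S100a9 of the myeloid list and Hbb-b2 of the red cell list were higher in both iNKT libraries. The 7 measured B cell markers summed to 1.55, 1.72, 58.7 and 86.1 FPKM, the 13 myeloid markers to 38.9, 20.4, 485 and 777, and the 6 red cell markers to 18.7, 17.7, 151 and 726. The 7 markers of plasmacytoid dendritic cells summed to 150, 98.5, 124 and 476 FPKM, highest in KO CD44hi, where 6 of the 7 were called higher than in WT CD44hi. The defining marker of plasmacytoid dendritic cells, Siglech, was listed at 0 in both iNKT libraries, as was the B cell gene Pax5. In the same list Tcf4, Spib and Runx2 stayed below 1 FPKM in both iNKT libraries, but Bst2, Ccr9 and Irf8 did not. Bst2 had 101, 78.7, 64.15 and 195 FPKM, Ccr9 41.0, 8.81, 7.91 and 41.0, and Irf8 6.79, 10.4, 22.9 and 105. In the iNKT pair 4 of 5 natural killer cell markers were measured, and Gzma (1.72 FPKM in WT and 89.0 in KO), Eomes (0 and 3.90) and Klra8 (1.09 and 3.33) were called higher in KO and Klrd1 (182 and 56.5) lower. Both measured markers of stromal and endothelial cells, Pecam1 (22.1 and 52.4) and Col1a1 (0.129 and 2.43), were called higher in KO iNKT. The other 3 of that list, Cdh5, Col1a2 and Col3a1, were listed at 0 in both iNKT libraries. Neither the part of these cells in the values below nor that of the RNA of both kinds in WT CD44hi was tested. In bulk samples, fewer cells of a type and less RNA per cell cannot be told apart.

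A difference between 2 libraries was called when it reached 2-fold on the log2(FPKM + 1) scale in a gene that reached 1 FPKM in either of them. This scale understates the differences of low genes, and ratios given here divide FPKM by FPKM. In the iNKT pair 5 of the 7 inhibitors were measured and 1 was called, Cdkn1c, which was higher in KO; over all 10819 measured genes the share called was 9.43%. In the CD44hi pair 6 were measured and 0 were called, beside 3.58% of 11355 genes. The median log2 difference of the measured inhibitors was -0.04 in iNKT and -0.01 in CD44hi, beside 0.05 and 0.01 over all measured genes. At a threshold of 1.5-fold, 2 were called in the iNKT pair, Cdkn1b lower and Cdkn1c higher, beside 14.3% of genes higher and 8.67% lower (23.0% in all). In the CD44hi pair 1 was called, Cdkn2a, higher, beside 6.44% higher and 3.47% lower (9.91% in all).

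**Figure D1:**
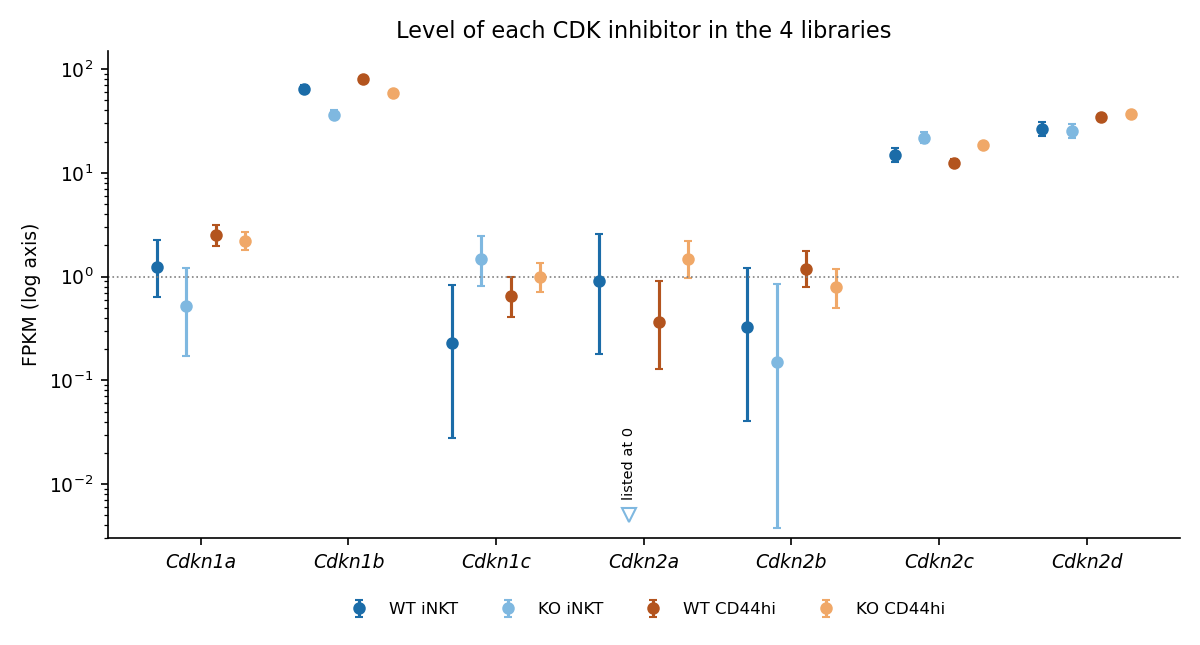
Level of each of the 7 CDK inhibitors (FPKM, log axis) in the 4 libraries, as points with 95% counting intervals; the dotted line is at 1 FPKM and the open triangle marks a gene listed at 0. Cdkn1b, Cdkn2c and Cdkn2d lay between 12.6 and 79.8 FPKM, while the other 4 genes were at 2.52 FPKM or less in each library.

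The members fell into a high and a low set by level. Cdkn1b, Cdkn2d and Cdkn2c were at 12.6 FPKM or more in each library, above at least 76.0% of all genes. Cdkn1a, Cdkn1c, Cdkn2a and Cdkn2b were at 2.52 FPKM or less throughout. In the iNKT libraries the low genes rested on an estimated 0 to 14 fragments each, and in the CD44hi libraries on 5 to 95.

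Cdkn1b (GRCm38 chromosome 6, 134920401 to 134925513, plus strand), which encodes p27, was the most abundant inhibitor in every library. Its iNKT levels were 64.8 FPKM (WT) and 36.3 (KO), and its CD44hi levels 79.8 (WT) and 58.1 (KO). Both KO libraries were below both WT libraries, and the counting intervals of the 4 levels did not overlap. In iNKT the KO level was 1.79-fold lower (interval 1.58 to 2.01), from an estimated 727 and 444 fragments in WT and KO. In CD44hi it was 1.37-fold lower (1.31 to 1.44), from 3312 and 3195 fragments. The log2 differences were -0.82 and -0.45, and neither was called. Only 4.79% of measured genes had a lower log2 difference in iNKT and 5.66% in CD44hi, and 89 of 10455 genes measured in both pairs (0.851%) were at least as far down in both, Cdkn1b included. The log2 difference stayed below 0 under each of the 7 settings tried in both pairs, between -0.83 and -0.70 in iNKT and between -0.52 and -0.17 in CD44hi. The smallest of these in CD44hi came from scaling to T cell identity genes, whose median log2 difference was -0.33 in that pair.

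The Cdkn1b promoter is shown because this gene and Cdkn2c differed in opposite directions in both pairs and are among the abundant members. The 250 bases before the start are from RefSeq on GRCm38.p6, 5′ to 3′ on the gene's strand, with each CpG in capitals (chr6:134920151-134920400, plus strand).
Cdkn1b: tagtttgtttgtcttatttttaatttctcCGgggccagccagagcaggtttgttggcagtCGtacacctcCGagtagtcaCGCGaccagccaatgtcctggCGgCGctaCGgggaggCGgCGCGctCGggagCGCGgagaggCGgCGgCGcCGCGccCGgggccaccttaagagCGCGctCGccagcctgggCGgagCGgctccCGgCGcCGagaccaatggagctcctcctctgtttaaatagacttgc
This window held 28 CpG, and 7.61% of 32851 windows of this length had at least 28, against a median of 6.

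Cdkn2c (GRCm38 chromosome 4, 109660876 to 109667189, minus strand) encodes p18, an inhibitor of CDK4 and CDK6. Its iNKT levels were 14.8 FPKM (WT) and 21.8 (KO), and its CD44hi levels 12.6 (WT) and 18.7 (KO). Both KO libraries were above both WT libraries. The intervals of the 2 KO levels overlapped, as did those of the 2 WT levels, while those of KO CD44hi and WT iNKT did not. The KO level was 1.48-fold higher in iNKT (interval 1.22 to 1.80; an estimated 172 and 277 fragments in WT and KO) and 1.49-fold higher in CD44hi (1.34 to 1.65; 540 and 1066 fragments). The log2 differences, 0.53 and 0.54, were not called and differed from each other by 0.01. Taken singly, 16.4% of measured genes had a higher log2 difference in iNKT and 7.37% in CD44hi. In both pairs at once, 227 of 10455 genes (2.17%) were at least as far up, Cdkn2c included. Alternative scalings and pseudocounts kept the difference above 0, at 0.52 to 0.65 in iNKT and 0.47 to 0.80 in CD44hi.

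Of the 2 starts that RefSeq gives Cdkn2c, the upstream one lies in a window rich in CpG (chr4:109666757-109667006, minus strand, RefSeq on GRCm38.p6, CpG in capitals).
Cdkn2c upstream start: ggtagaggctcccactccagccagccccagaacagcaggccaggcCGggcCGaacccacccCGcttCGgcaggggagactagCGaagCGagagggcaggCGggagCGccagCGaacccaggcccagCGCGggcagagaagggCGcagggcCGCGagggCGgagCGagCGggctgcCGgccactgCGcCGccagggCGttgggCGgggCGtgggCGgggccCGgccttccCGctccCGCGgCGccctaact
It held 29 CpG, beside 28 in the Cdkn1b window above, and the window at the downstream start held 6. The files give 1 value for the gene and do not separate the starts.

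Since Cdkn1b was lower and Cdkn2c higher in KO, their ratio within a library, which no scaling between libraries can move, differed more than either gene. Cdkn1b stood at 4.38, 1.66, 6.35 and 3.11 times the FPKM of Cdkn2c. The ratio was 2.63-fold lower in KO in iNKT and 2.04-fold lower in CD44hi.

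Cdkn2d (GRCm38 chromosome 9, 21288410 to 21291407, minus strand), which encodes the INK4 protein p19Ink4d, differed little between genotypes. Its iNKT levels were 26.3 FPKM (WT) and 25.5 (KO), and its CD44hi levels 34.1 (WT) and 36.9 (KO). The levels parted by cell type, with both CD44hi libraries above both iNKT libraries, and the intervals of the genotypes overlapped within each cell type. KO divided by WT gave 0.970 in iNKT (interval 0.776 to 1.20) and 1.08 in CD44hi (0.985 to 1.19). In iNKT the sign of its log2 difference turned from -0.04 to 0.08 when libraries were scaled to T cell identity genes.

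**Figure D2:**
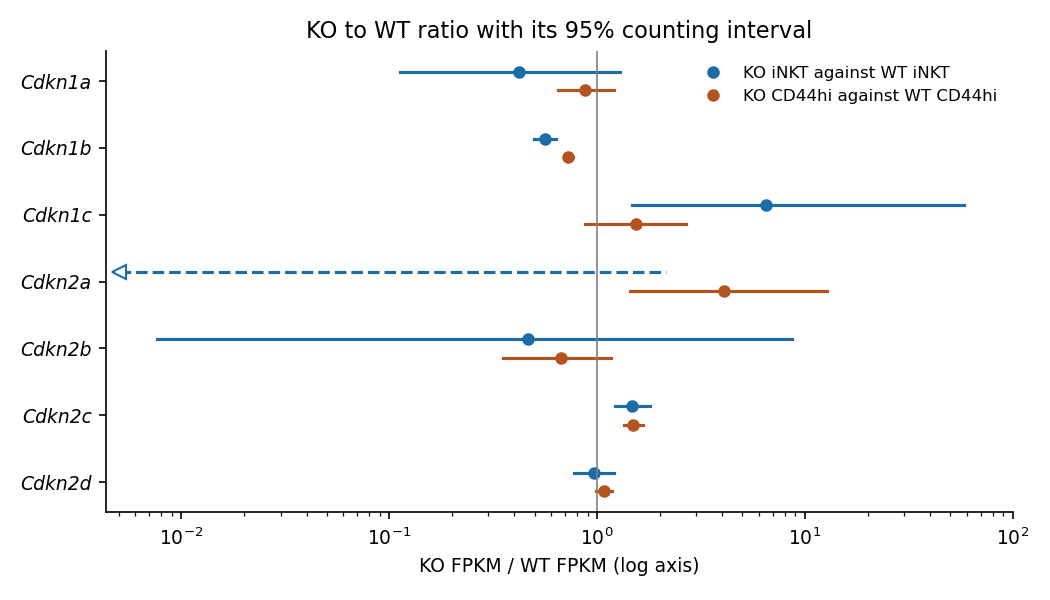
KO to WT ratio of FPKM (log axis) for each CDK inhibitor in iNKT (blue) and CD44hi (brown), with 95% counting intervals; the dashed line and arrow show Cdkn2a in iNKT, listed at 0 in KO. The intervals of Cdkn1b lay below 1 and those of Cdkn2c above 1 in both pairs, and the interval of Cdkn2a lay above 1 in CD44hi, at 1.43 to 12.8.

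Cdkn2a (GRCm38 chromosome 4, 89274471 to 89294653, minus strand) gives rise to 2 unrelated proteins from separate first exons: p16Ink4a, which binds CDK4 and CDK6, and p19Arf, which stabilises p53. The files hold 1 value for the symbol, so the 2 transcripts are counted together. In iNKT it had 0.899 FPKM in WT and was listed at 0 in KO, and in CD44hi it had 0.362 in WT and 1.47 in KO. The highest level was in KO CD44hi and the lowest in the other KO library. In CD44hi the KO level was 4.07-fold higher (interval 1.43 to 12.8), from an estimated 5 fragments in WT and 25 in KO. Its log2 difference of 0.86 was not called with a pseudocount of 1, but passed 2-fold with 0.5 or 0.1, and 3.28% of measured genes had a higher one. In iNKT the WT value stood for an estimated 3 fragments. In KO iNKT 3 fragments would have been worth 0.774 FPKM, so a level close to that of WT lay within counting error. The log2 difference in CD44hi exceeded that in iNKT by 1.78, which could not be tested.

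The 2 starts of Cdkn2a and the start of Cdkn2b are shown because the locus is a classic Polycomb target, and because their CpG content differs. The windows are from RefSeq on GRCm38.p6, 250 bases before each start on the minus strand, with CpG in capitals. The p19Arf start is at chr4:89294620-89294869, the p16Ink4a start at chr4:89282193-89282442 and the Cdkn2b start at chr4:89311033-89311282.
Cdkn2a p19Arf start: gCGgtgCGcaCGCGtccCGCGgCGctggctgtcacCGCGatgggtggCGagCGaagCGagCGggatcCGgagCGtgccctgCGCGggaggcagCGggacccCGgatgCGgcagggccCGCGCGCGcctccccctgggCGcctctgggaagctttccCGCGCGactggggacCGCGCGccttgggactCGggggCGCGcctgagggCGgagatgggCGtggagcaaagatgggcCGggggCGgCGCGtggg
Cdkn2a p16Ink4a start: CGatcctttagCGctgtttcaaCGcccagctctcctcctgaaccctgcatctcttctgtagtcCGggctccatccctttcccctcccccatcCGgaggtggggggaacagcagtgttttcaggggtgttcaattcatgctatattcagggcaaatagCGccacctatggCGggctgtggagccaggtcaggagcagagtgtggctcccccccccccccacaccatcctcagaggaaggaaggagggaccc
Cdkn2b: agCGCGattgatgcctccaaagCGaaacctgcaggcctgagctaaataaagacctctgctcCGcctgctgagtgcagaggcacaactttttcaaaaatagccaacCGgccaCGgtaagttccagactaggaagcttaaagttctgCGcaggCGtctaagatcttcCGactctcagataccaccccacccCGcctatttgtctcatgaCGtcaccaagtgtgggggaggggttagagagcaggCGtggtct
The p19Arf window held 40 CpG, a number reached by 1.31% of all windows, the p16Ink4a window 7 and the Cdkn2b window 12. The GC box GGGCGG, read on both strands, was in 5 of the 9 windows of the inhibitors, among them the p19Arf start, and in 32.7% of all windows. It was not in the p16Ink4a or Cdkn2b window. It holds a CpG, so the 2 measures overlap.

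Cdkn2b (GRCm38 chromosome 4, 89306299 to 89311039, minus strand) encodes p15, an inhibitor of CDK4 and CDK6 induced by transforming growth factor beta. Its iNKT levels were 0.326 FPKM (WT) and 0.151 (KO), and its CD44hi levels 1.19 (WT) and 0.798 (KO). The KO level was the lower one in both pairs, unlike that of Cdkn2a in CD44hi, but the counts were small. In iNKT the values stood for 2 and 1 fragments, and the KO to WT ratio was 0.463 (interval 0.00767 to 8.69). In CD44hi they stood for 27 and 23 fragments, with a ratio of 0.669 (0.353 to 1.17).

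The nearest genes on both sides of this locus were not called in either pair. Mtap, 93.4 kb from Cdkn2a, encodes an enzyme that salvages methylthioadenosine. Levels in iNKT were 16 FPKM (WT) and 24.0 (KO), and those in CD44hi 13.7 (WT) and 18.3 (KO), so that KO exceeded WT 1.49-fold in iNKT (interval 1.25 to 1.78) and 1.34-fold in CD44hi (1.22 to 1.47). Dmrta1, a DM domain transcription factor gene 368 kb from Cdkn2b on the other side, was at 0.15, 0.880, 0.0543 and 0.225 FPKM. KO divided by WT gave 5.86 in iNKT (1.72 to 30.9; an estimated 3 and 19 fragments in WT and KO) and 4.14 in CD44hi (1.41 to 16.5; 4 and 22 fragments). Dmrta1 was below 1 FPKM in each library and so was not measured by the rule above.

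Cdkn1a (GRCm38 chromosome 17, 29090976 to 29100727, plus strand) encodes p21, the Cip/Kip inhibitor that p53 induces after DNA damage. Its iNKT levels were 1.25 FPKM (WT) and 0.525 (KO), and its CD44hi levels 2.52 (WT) and 2.21 (KO). Both CD44hi libraries were above both iNKT libraries, and the KO level was the lower one in each pair. In iNKT the KO to WT ratio was 0.421 (interval 0.113 to 1.3; 11 and 5 fragments in WT and KO). In CD44hi it was 0.878 (0.652 to 1.21; 81 and 95 fragments), and its log2 difference of -0.13 turned to 0.07 when libraries were scaled to T cell identity genes. A called difference was found only between cell types: in KO cells the iNKT level was 4.22-fold lower than the CD44hi level (1.76 to 13.4). The same ratio in WT cells was 2.02 (1.06 to 4.14) and was not called. With the shortest RefSeq transcript as the length, the interval in WT cells was 0.790 to 8.63, which holds 1.

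Cdkn1c (GRCm38 chromosome 7, 143458339 to 143461050, minus strand) encodes p57 and is an imprinted gene, expressed mainly from the maternal copy. It and Cdkn1a overlap a gene model on the opposite strand in GENCODE M21, and the library kit does not mark strand, so reads of the partners cannot be told apart. Levels in iNKT were 0.228 FPKM (WT) and 1.47 (KO), and those in CD44hi 0.648 (WT) and 0.999 (KO). Both KO libraries were above both WT libraries. The KO level was 6.48-fold higher in iNKT, with an interval of 1.47 to 57.9 from an estimated 2 and 14 fragments in WT and KO. Its log2 difference was 1.01, just past the threshold. In CD44hi the ratio was 1.54 (0.875 to 2.69; 21 and 42 fragments in WT and KO), and the gene stayed just below 1 FPKM. Its imprinted neighbours were near 0, with Kcnq1 at 0.0286 FPKM or less and Slc22a18 at 0.138 or less.

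The neighbours of the other members were read too. Kri1, which ends 441 bases from Cdkn2d, had 26.7, 30.8, 39.5 and 42.4 FPKM. Ap1m2, an adaptor subunit gene known from epithelial cells and 2.87 kb from Cdkn2d on the other side, was at 0.380, 2.58, 0.824 and 1.78 FPKM. KO divided by WT gave 6.79 in iNKT (interval 2.43 to 20.5; 5 and 34 fragments) and 2.16 in CD44hi (1.49 to 3.26; 37 and 107 fragments), while Cdkn2d and Kri1 differed less. Near Cdkn1b, Gpr19 was at 2.95, 3.06, 2.89 and 2.01 FPKM and Apold1 at 0.153 or less. Srsf3, beside Cdkn1a, was at 70.5 to 106 FPKM and Faf1, beside Cdkn2c, at 6.26 to 10.9. The other neighbour of each of these, Rab44 and 4930522H14Rik, was at 0.0135 FPKM or less.

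**Figure D3:**
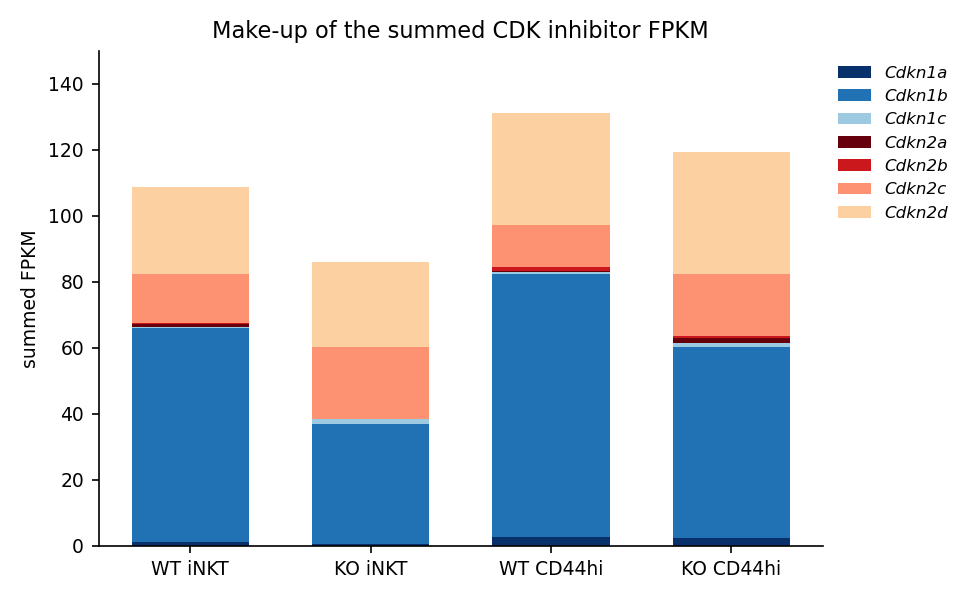
Summed FPKM of the 7 CDK inhibitors in each library, stacked by gene, with Cip/Kip genes in blue and INK4 genes in red to orange. Cdkn1b took 59.7% of the sum in WT iNKT and 42.3% in KO iNKT, and 60.8% and 48.8% in WT and KO CD44hi.

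The summed level of the family was 109, 85.8, 131 and 119 FPKM. KO divided by WT was 0.790 in iNKT, and 0.860 when libraries were scaled to T cell identity genes. In CD44hi it was 0.908, and this scaling turned its direction, to 1.11. Cip/Kip genes summed to 66.3, 38.3, 83.0 and 61.3 FPKM, and INK4 genes to 42.4, 47.5, 48.2 and 57.9. Cip/Kip RNA was thus 1.57 times the INK4 RNA in WT iNKT and 0.806 times in KO iNKT, and 1.72 and 1.06 times in WT and KO CD44hi. These sums were carried by Cdkn1b on one side and by Cdkn2c and Cdkn2d on the other.

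Between cell types, 5 members were measured in WT and 6 in KO. In WT, 0 were called, beside 14.6% of 11220 genes (3.65% higher in iNKT and 10.9% lower), and in KO 2 were called, Cdkn1a and Cdkn2a (listed at 0 in KO iNKT), both lower in iNKT, beside 12.1% of 11472 genes called in either direction, 3.02% higher in iNKT and 9.07% lower. At 1.5-fold, 2 were called lower in WT, Cdkn1a and Cdkn2b, beside 10.3% of genes higher and 19% lower (29.3% in all), and 3 were called lower in KO, Cdkn1a, Cdkn1b and Cdkn2a, beside 10.5% higher and 16.1% lower (26.5% in all). Cdkn2d was 1.3-fold lower in iNKT than in CD44hi in WT (interval 1.09 to 1.54) and 1.44-fold lower in KO (1.23 to 1.71). Cdkn1b was 1.23-fold lower in WT (1.14 to 1.34) and 1.60-fold lower in KO (1.45 to 1.77). Cdkn2c was 1.18-fold higher in iNKT in WT (0.986 to 1.4) and 1.17-fold higher in KO (1.02 to 1.34). With the shortest RefSeq transcript as the length, its interval in KO was 0.934 to 1.44, which holds 1. The comparisons between cell types share libraries with those between genotypes. The cell types also differed in depth and in the markers of other cells given above.

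**Figure D4:**
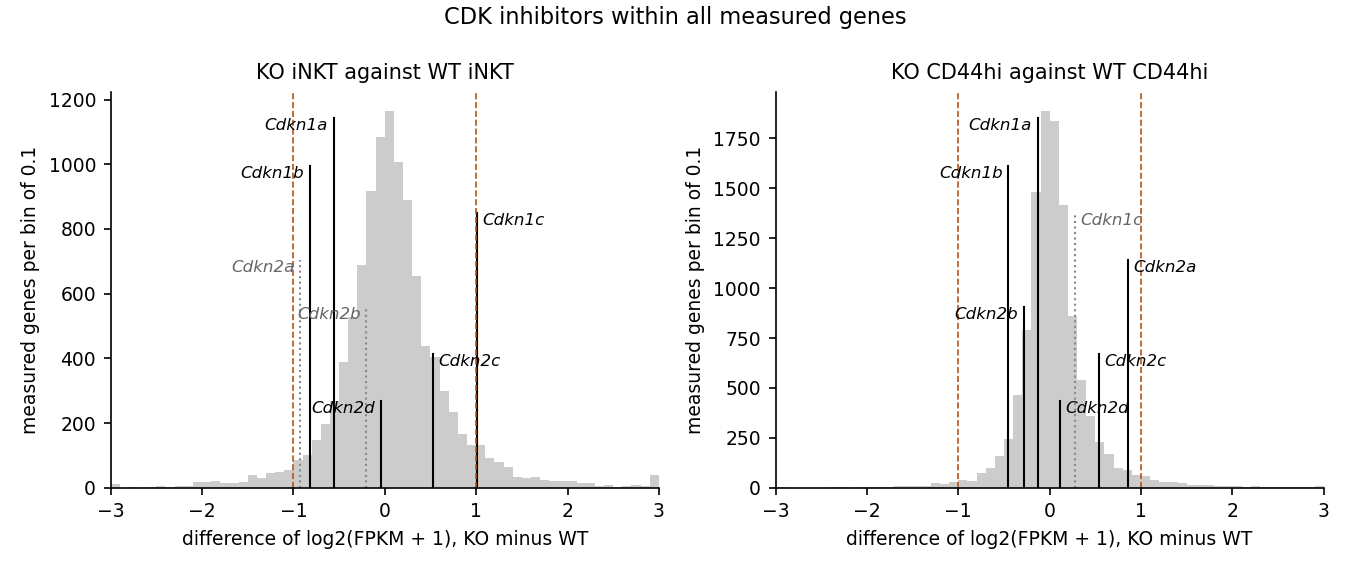
Differences of log2(FPKM + 1), KO minus WT, of all measured genes (grey bars, genes per bin of 0.1, with values beyond 3 in either direction in the end bins) and of the CDK inhibitors (lines; dotted grey lines for members below 1 FPKM in both libraries), with dashed lines at 2-fold. Cdkn1b lay at -0.82 in iNKT and -0.45 in CD44hi, Cdkn2c at 0.53 and 0.54, and Cdkn1c alone reached 2-fold, in iNKT.

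The kinases and cyclins that these proteins bind were read beside them. Of the INK4 partners, 4 were measured in the iNKT pair and 5 in the CD44hi pair, and 0 were called between genotypes, beside 6.08% of genes called higher and 3.35% lower in iNKT and 2.44% and 1.14% in CD44hi. Cdk4 had 105, 143, 67.4 and 86.1 FPKM, and Cdk6 1.37, 3.08, 5.10 and 4.10. KO exceeded WT in Cdk4 1.37-fold in iNKT (interval 1.26 to 1.48) and 1.28-fold in CD44hi (1.21 to 1.34). Among the D cyclins, Ccnd3 was at 164, 124, 74.1 and 62.6 FPKM, Ccnd2 at 76.7, 61.2, 60.4 and 68.7, and Ccnd1 at 0.700, 0.698, 22.7 and 44.7. Ccnd1 was higher in the CD44hi libraries, which also carried the markers of B and myeloid cells. The part of these cells in its level was not tested.

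Of 8 Cip/Kip partners 7 were measured in the iNKT pair, and 1 was called higher in KO, beside 6.08% of all measured genes. The median log2 difference was 0.70, beside 0.05 over all measured genes, and each of the 7 lay above 0. The called gene, Ccne1, encodes cyclin E1 and had 4.97 FPKM in WT and 13.4 in KO. In the same 2 libraries Cdk2 had 27.1 and 38.7 FPKM, Cdk1 4.15 and 7.69, Ccne2 1.93 and 3.41, Ccna2 9.48 and 16, Ccnb1 at 3.57 and 6.70 and Ccnb2 at 9.26 and 13.9, while Ccna1 was listed at 0 in all 4 libraries. In the CD44hi pair 0 of 7 were called, beside 3.58% of all measured genes, with a median of -0.11. There WT and KO had 21.3 and 24.3 FPKM of Cdk2, with Cdk1 at 3.10 and 3.38, Ccne1 at 6.11 and 4.76, Ccne2 at 2.02 and 1.80, Ccna2 at 10.3 and 7.94, Ccnb1 at 2.63 and 2.06 and Ccnb2 at 8.52 and 9.90. Set against their kinases, summed Cip/Kip RNA was 2.12, 0.826, 3.40 and 2.21 times the summed FPKM of Cdk1 and Cdk2. Summed INK4 RNA was 0.399, 0.325, 0.665 and 0.642 times that of Cdk4 and Cdk6.

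**Figure D5:**
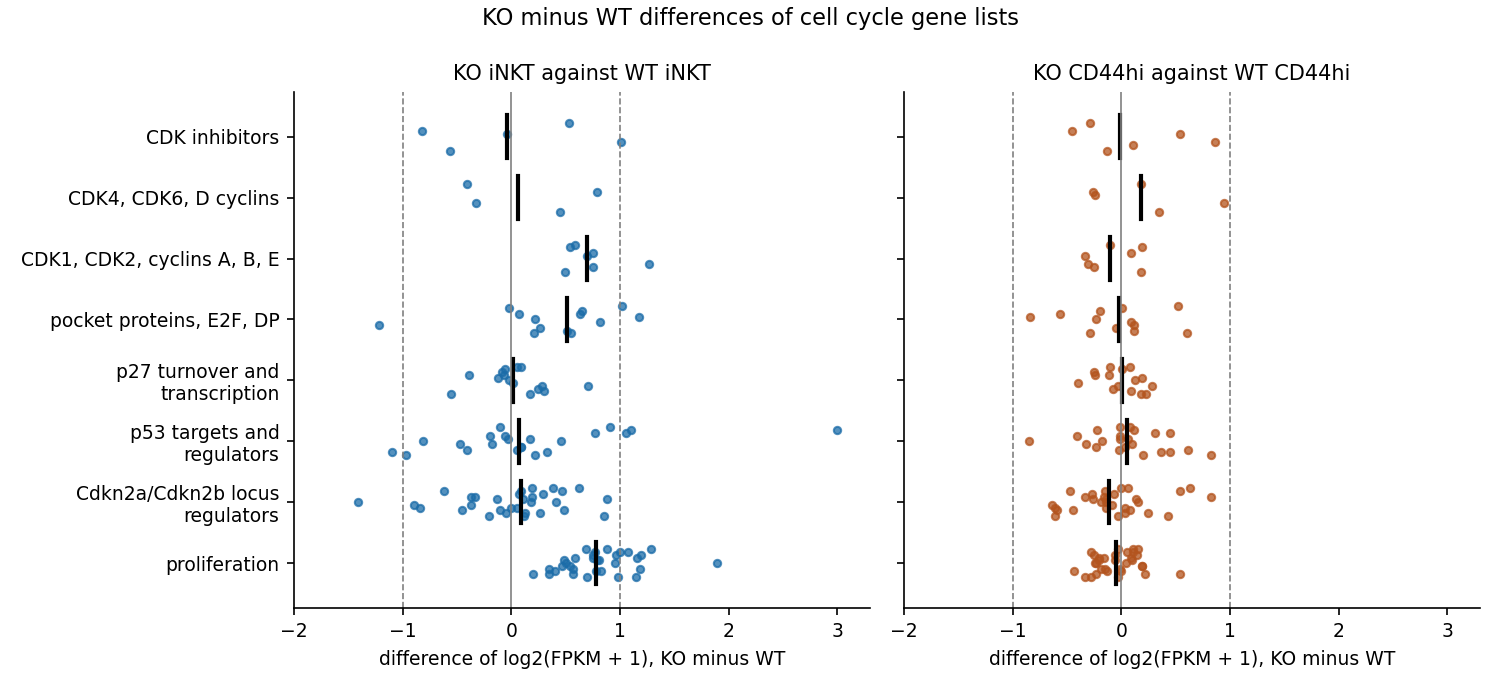
Differences of log2(FPKM + 1), KO minus WT, of the measured genes of 8 lists around the cell cycle (points), with list medians (black bars) and dashed lines at 2-fold, for iNKT (left) and CD44hi (right). All 32 proliferation genes lay above 0 in iNKT, with a median of 0.78, while in CD44hi their median was -0.04.

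Genes downstream of the kinases were read in WT and KO iNKT, in that order. Of 13 pocket proteins, E2F and DP factors, 2 were called higher in KO iNKT and 1 lower (median 0.52), beside 6.08% and 3.35% of all measured genes. In the same pair some markers of natural killer, stromal and endothelial cells differed, as given above, and their part was not tested. E2f2 was at 3.20 and 8.49 FPKM and E2f1 at 3.09 and 7.30; both encode activators of S phase genes. Rbl2, which encodes p130, the pocket protein of resting cells, was at 103 and 43.7 FPKM, 2.35-fold lower in KO iNKT. The proliferation list had 8 of 32 called higher and 0 lower, beside the same 6.08% and 3.35%, with a median of 0.78. The largest differences were in Uhrf1 (6.14 and 25.6 FPKM), Cdc6 (1.3 and 4.59) and Mybl2 (1.22 and 4.07), and the smallest called ones in Mcm5 (19.1 and 39.2), Rrm2 (16.4 and 35.6) and Aurka (2.16 and 6.00). The proliferation list shares Cdk1, Ccna2, Ccnb1 and Ccnb2 with the Cip/Kip partners, so the 2 lists are not separate observations. In the CD44hi pair 0 of 12 measured pocket protein and E2F genes and 0 of 32 proliferation genes were called, with medians of -0.02 and -0.04. The share called over all measured genes was itself only 3.58% in that pair.

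Genes known to act on the inhibitors were read in the same way. Of 15 genes of p27 turnover and transcription 0 were called in either pair (medians 0.02 and 0.00), beside 9.43% and 3.58% of all measured genes. Cdkn1b was not called by this rule either. Of 22 measured p53 targets and regulators, 3 were called higher in KO iNKT, Pmaip1 (0.395 and 10.2 FPKM), Plk2 (4.25 and 10.3) and Sesn2 (1.97 and 5.19), and 1 lower, Sesn1 (87.6 and 40.3), for a median of 0.07, beside 9.43% of all measured genes called in either direction. In CD44hi 0 of 22 were called (median 0.05), beside 3.58%. Of 31 measured regulators of the Cdkn2a and Cdkn2b locus, Polycomb genes among them, 1 was called in iNKT, Id2, lower in KO at 441 FPKM than in WT at 1171 (list median 0.09), so that the share called lay below the 9.43% of all genes. In CD44hi 0 of 30 were called (median -0.11), beside 3.58% of all measured genes.

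Genes with the pattern most like each of the 3 abundant members were sought among 8302 others at 5 FPKM or more in any library. Likeness was the distance between log2(FPKM + 1) values centred on their mean over the 4 libraries, and 4 points leave many genes alike. Nearest to Cdkn1b were Cc2d1a (distance 0.06; 17.5, 9.41, 21 and 16.1 FPKM), Slc25a30 (0.10) and Abcb1a (0.13), and 17 genes lay within 0.2. Nearest to Cdkn2c were Slc9a9 (0.05; 35.7, 51.5, 29.1 and 43.6 FPKM), Fam3c (0.06) and Nmnat3 (0.09), of 50 genes within 0.2. Nearest to Cdkn2d were Eif3g (0.03), Man2b1 (0.04) and Xrcc4 (0.04), of 379 genes within 0.2, so that its pattern was the most common of the 3.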

How the data were processed

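FPKM values per gene symbol, computed by the authors, were deposited for each library. Tools listed in the submitters' processing notes, with no role given, are Cufflinks 2.0.2, TopHat 1.3.2 and Bowtie2 2.0.0, with mm10 as build; annotation and filters are not given in the sources used here. Per the labels' protocols, cDNA was prepared with a TruSeq RNA kit, a kind that does not mark strand. Date-like names left by spreadsheet software (26, in the CD44hi files) and 777 small RNA symbols were left out, and rows sharing 1 of 240 symbols were summed.

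Fragments were estimated from FPKM steps over genes with 1 transcript in GENCODE M21 (3084 genes; steps over those of at least 3000 bases) after trimming 200 to 240 bases per transcript, and, for members, the longest RefSeq transcript. Of 62 to 90 low values per library, 66.1% to 67.9% lay within 0.15 of a whole number of fragments. For all 7 inhibitors, expression was compared as differences of log2(FPKM + 1) with a floor of 1 FPKM. With 1 library per group no test was run; scripts (Python 3.11.15, pandas 2.3.3, SciPy 1.17.1) were tested on simulated data. The labels do not say whether libraries came from 1 animal or several. Alternatives were other pseudocounts, floors, scalings, row rules and folds. The members and gene lists were chosen with earlier results of these data known. Genes named were all 7 members, the nearest protein-coding neighbours, the 3 most alike genes and Ezh2. Every gene of the cell cycle lists of up to 8 was named too. From longer lists the called members with the 3 largest and 3 smallest differences were named. The lists of markers of other cells were not named in full. Zbtb16, Eif2s3y, Xist and the markers of other cells, the 3 higher in iNKT among them, were named outside this rule, after their values were seen. RefSeq promoter windows matched 6 of the 7 members; Cdkn1c is named only.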

Additional observations from a re-analysis of the deposited data

Results flagged for a closer look

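Cdkn2a and Cdkn2d differed in opposite directions between KO and WT in the 2 cell types. The difference of their log2 differences, CD44hi minus iNKT, was 1.78 for Cdkn2a and 0.15 for Cdkn2d. With 1 library per group these differences were not tested. For Cdkn2a the iNKT side rested on an estimated 3 fragments in WT and a value listed at 0 in KO. In the CD44hi pair the summed markers of other cells differed too. In WT and KO they were 124 and 476 FPKM for plasmacytoid dendritic cells, 151 and 726 for red cells and 87.6 and 217 for plasma cells. Those of myeloid cells were 485 and 777, and those of B cells 58.7 and 86.1. Single genes of these lists, such as Prdm1 and Cd22, were lower in KO. Zbtb16 and Eif2s3y also differed in this pair, as given above. The part of none of these was tested. For Cdkn2d both counting intervals held a ratio of 1.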

How the results depend on the processing

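No paired analysis was possible because each group was 1 library and the labels give no replicate numbers. For the same reason no library could be left out. With a pseudocount of 0.1 in place of 1, 2 inhibitors were called in the iNKT pair (Cdkn1a lower, Cdkn1c higher), 1 in the CD44hi pair (Cdkn2a higher), 1 between the WT libraries (Cdkn2b lower in iNKT) and 2 had KO effects that differed 2-fold between cell types (Cdkn1c, Cdkn2a; 1 with a pseudocount of 1). A pseudocount of 0.5 gave 1, 1 and 2 for the last 3 of these. A floor of 5 FPKM left 0 called in the iNKT pair and 0 between the KO libraries. At 1.5-fold, 2 were called in the iNKT pair (Cdkn1b lower, Cdkn1c higher), 1 in the CD44hi pair (Cdkn2a higher) and 2 between the WT libraries (Cdkn1a, Cdkn2b, lower in iNKT). Shares over all genes were given above for 1.5-fold, but were not computed for these pseudocounts, this floor or the difference between cell types. Scaling the summed levels was an alternative chosen after seeing the data, and turned the CD44hi sum as given above. A shorter transcript length per member, also chosen after seeing the data, left 3 members in iNKT and 3 in CD44hi whose KO to WT interval lay clear of 1, as with the longest. It moved this number from 3 to 2 between the WT libraries, where Cdkn1a dropped out, and from 5 to 4 between the KO libraries, where Cdkn2c did. The share of all genes with such an interval was not computed. The counts of calls follow from the thresholds: the 4 low members sit near 1 FPKM, and Cdkn1b near 1.8-fold. Scaling and the rule for shared symbols left the number of members called as it was in each comparison. Scaling to T cell identity genes moved the median log2 difference of all measured genes from 0.05 to 0.17 in iNKT and from 0.01 to 0.27 in CD44hi. Of 168 pairs of a member's log2 difference and an alternative, 164 stayed within the counting interval or within 0.1 of the value, and 0 called values changed sign. The other 4 came from this scaling: in CD44hi Cdkn1b stood at -0.17, Cdkn2c at 0.80 and Cdkn2d at 0.38, and between the WT libraries Cdkn1b stood at -0.06. The 168 pairs include the rule for shared symbols, which left each member's value as it was. Wide intervals of low members also kept large shifts within them. In iNKT Cdkn2a stood at -0.93, and at -3.32 with a pseudocount of 0.1, and this pair counted as within. Depth limits the iNKT values of Cdkn1a, Cdkn1c, Cdkn2a and Cdkn2b, at 14 fragments or fewer.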
